A study of Mus musculus with 23 samples.

Results

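The cortex of adult mice that carry the G34R substitution, arginine in place of glycine 34 of the histone variant H3.3, was compared with wild-type (WT) cortex at 10 weeks of age. Animals were chosen by the genotype and age in their labels, which gave 9 of the 22 animals of the study and 10 of its 23 libraries. They were 3 males heterozygous for G34R in H3f3a (Hf3fa+/G34R in the labels) and 6 WT males (Hf3fa+/+). One WT animal was sequenced as 2 libraries, which were summed. Values of 3 males with valine (G34V) and of 1 male and 1 female with tryptophan (G34W) at the same residue, and of 4 WT and 4 G34R animals of both sexes at postnatal day 7, are set beside some genes. All carriers are heterozygous by label. The WT animals are the same for all 3 substitutions at 10 weeks, so those values are not independent of each other. The 10-week fit has no term for sex, so the values of G34W also hold the female. The sources used here give no strain. Total RNA came from pulverised cortex, so each value is an average over all cell types, and fewer cells of a type cannot be told apart from less RNA per cell.

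H3.3 is the histone H3 that is placed into chromatin outside DNA replication, at active genes and at repeats. Glycine 34 lies beside a lysine whose methylation, written by SETD2 and the NSD enzymes, marks gene bodies and is read by DNMT3A, the DNA methyltransferase of maturing neurons. The series names altered DNMT3A recruitment and progressive neurodegeneration as its subjects. In cortex, astrocytes raise filament genes after injury, oligodendrocytes make myelin, microglia clear debris, and cholesterol is made locally because it does not cross from the blood.

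The libraries held 35.2 to 90.1 M counts. Mitochondrial protein-coding genes took 0.886 to 0.984% of counts in the G34R libraries, 0.933 to 1.03% in 3 WT libraries and 1.19 to 1.35% in the other 4 WT libraries. The 2 summed libraries of 1 WT animal fell on both sides, at 0.933% and 1.275%, so the share can differ between libraries of the same animal. All G34R libraries were of low share and most WT libraries of high share, so this share is partly confounded with genotype. The part of this share in the results was not tested as such, and where a named gene lost its call with the 3 WT libraries of low share alone, that value stands beside it. The edited gene H3f3a (chromosome 1, 180800832 to 180813943 of GRCm38) had 42.5, 45.4 and 41.4 CPM (counts scaled to library depth) in the 3 G34R animals and 41.5 to 49.6 CPM in WT, with a log2 fold change of -0.07 ± 0.07 (SE) and an adjusted p of 0.687. All 5 defining markers of cortical projection neurons were present, at 11.1 CPM or more in every animal. Slc17a7, the vesicular glutamate transporter, lay at 845 to 905 CPM in G34R and 793 to 946 in WT. Neurod6, a transcription factor of these neurons, was the exception in direction, at 42.0 to 44.9 CPM in G34R and 49.7 to 69.1 in WT (adjusted p = 0.0384). Its call was lost without any 1 of the 3 G34R animals or of WT replicates 1, 2 and 3, with an adjusted p of up to 0.156.

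Of 21274 genes tested with edgeR, 1193 (5.61%) passed an adjusted p of 0.05, 628 (2.95%) higher and 565 (2.66%) lower in G34R. The median log2 fold change of all genes tested was -0.0036. All G34R animals lay above all WT animals for 596 of the higher genes and below them for 532 of the lower genes. Separate ranges are therefore common to most called genes. The number called was 693, 766 and 761 without G34R replicates 1, 2 and 3, 753 in a fit blocked by series of adjoining animal numbers and 966 with libraries of low mitochondrial share. The series that hold G34R animals hold only WT replicates 1 and 4, so the blocked contrast rests on fewer WT animals. A call lost with the block therefore cannot tell a difference between series from lower power. Outside the immune lists 480 genes were higher and 562 lower, and of 233 immune-list genes 148 were higher and 3 lower. The counts of called members in each list are shown as shares, with the shares of all genes tested as dotted lines.

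**Figure D1:**
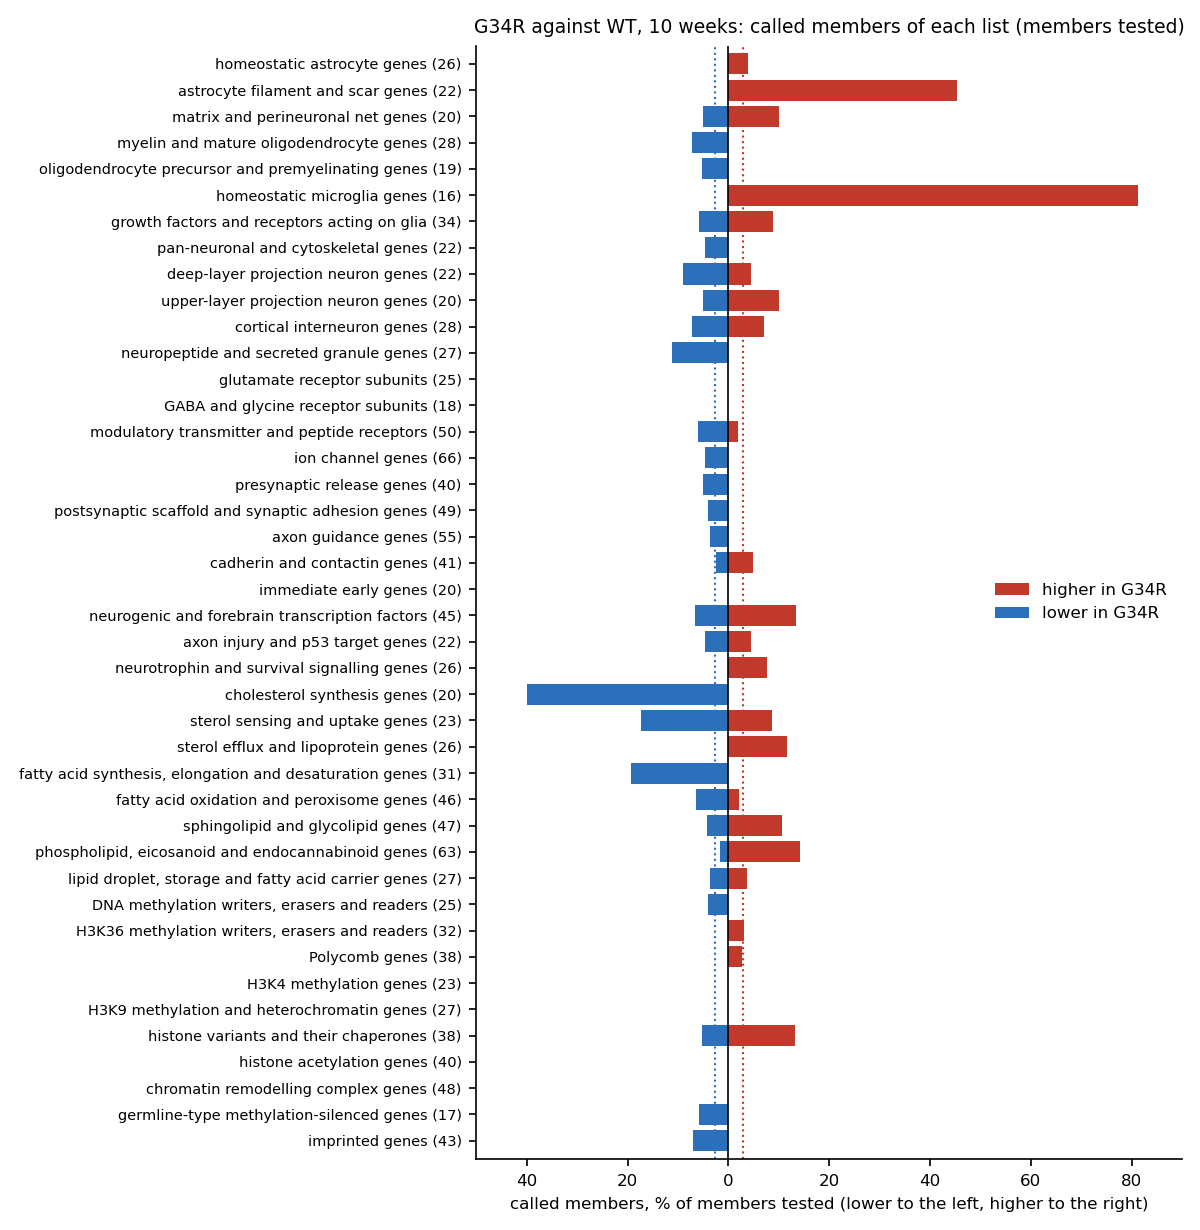
Called members of each glial, neuronal, lipid and chromatin list as a percentage of the members tested (x axis), with the number tested in brackets. Bars to the right are genes higher and bars to the left genes lower in G34R at 10 weeks (adjusted p under 0.05), and the dotted lines mark 2.95% and 2.66% of all genes. The longest bars belong to homeostatic microglia, astrocyte filament and cholesterol synthesis genes, and 7 lists have no bar.

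Astrocyte genes were followed in 2 lists. Of 22 genes of intermediate filaments and the scar response, 10 rose and 0 fell, with a median log2 fold change of 0.31. Their summed level was 401 to 462 CPM in WT and 791 to 837 CPM in G34R. The filament gene Gfap alone held 112 to 143 CPM of that sum in WT and 431 to 463 CPM in G34R. Of 26 genes of the resting astrocyte (glutamate uptake, gap junctions, water and potassium transport) 1 rose, with a median of 0.0010, and the sum was 7722 to 8730 CPM in WT and 7593 to 8016 in G34R. At an unadjusted p under 0.05 each of the lists held 10 genes, and DESeq2 called 10 filament genes and 2 resting genes. The difference between the lists was not tested. The count of the first list was 8 to 10 over the 9 fits that each left out 1 animal and 9 with libraries of low mitochondrial share.

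Vim, the intermediate filament vimentin, had 40.4, 37.2 and 33.8 CPM in G34R against 23.5, 25.7 and 29.5 (lowest, median and highest) in the 6 WT animals (log2 fold change 0.50 ± 0.09, adjusted p = 0.00275). All 3 G34R animals lay above all WT animals. S100a4, a calcium-binding protein of reactive cells, had 2.43, 2.10 and 2.45 CPM in G34R against 0.832, 1.04 and 1.27 in WT (1.16 ± 0.18, adjusted p = 0.000604). Osmr, the receptor of oncostatin M, had 6.65, 4.93 and 5.93 CPM against 2.43, 3.04 and 3.83 (0.93 ± 0.15, adjusted p = 0.000855). Neither gene's groups overlapped. The highest call of the list was Gfap, the filament protein that defines the reactive astrocyte, at a log2 fold change of 1.82 ± 0.07.

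Among resting-astrocyte genes the call was Mlc1, a membrane protein of the astrocyte end-feet, with 202, 181 and 183 CPM in G34R against 146, 152 and 165 in WT (0.29 ± 0.06, adjusted p = 0.00589). Without G34R replicate 1 its adjusted p was 0.0643. Aqp4, the water channel of the same end-feet, was at 162, 143 and 167 CPM against 118, 133 and 144, and its groups overlapped (adjusted p = 0.137). A pair of genes outside the lists, picked after their values were seen, rose beside the filament genes. Slc14a1, a urea transporter of astrocytes, had 18.5, 19.3 and 21.2 CPM in G34R against 7.95, 8.86 and 10.6 in WT (1.1 ± 0.10, adjusted p = 1.34e-06). Igfbp5, a secreted binder of insulin-like growth factors, had 172, 163 and 147 CPM against 104, 108 and 112 (0.58 ± 0.05, adjusted p = 2.86e-06).

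Genes of the homeostatic microglia list rose as well: 13 of 16 were higher and 0 lower, with a median of 0.52. The list is not confined to genes of the resting state. Its largest log2 fold change was 1.42 for Trem2, Tyrobp gave 1.26, and the smallest was 0.13 for P2ry12. The count was 8 without G34R replicate 1, 11 to 13 without any other animal, and 9 with libraries of low mitochondrial share. Csf1r, the receptor that microglia need to survive, had 153, 136 and 144 CPM in G34R against 95.4, 101 and 103 in WT (0.53 ± 0.06, adjusted p = 1.06e-05). Olfml3, a secreted protein of microglia, had 26.4, 34 and 23.5 CPM against 13.3, 16.1 and 18.7 (0.79 ± 0.11, adjusted p = 3e-04). P2ry12, the nucleotide receptor of surveying microglia, did not pass, with 34.1, 37.9 and 33.9 CPM against 29.4, 32.3 and 33.9 (0.13 ± 0.07, adjusted p = 0.373). At day 7 both P2ry12 and Cx3cr1, the fractalkine receptor, were higher in G34R (0.57 and 0.45, adjusted p = 0.0427 and 0.0225). At 10 weeks Cx3cr1 gave 0.67 ± 0.08 (adjusted p = 2.22e-05).

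Of 34 growth factors and receptors that act on glia, 3 rose and 2 fell, with a median of 0.07, and 3 in all passed without any 1 G34R animal, 3 with libraries of low mitochondrial share and 1 with the block. Both receptors of transforming growth factor beta, a signal that keeps microglia in their resting state, were among the calls. Tgfbr2 had 24.5, 24.6 and 25.2 CPM in G34R against 15.3, 16.8 and 19.4 in WT (0.53 ± 0.09, adjusted p = 0.00144). Tgfbr1 had 43.3, 44.3 and 42.2 CPM against 33.9, 36 and 38.7 (0.26 ± 0.05, adjusted p = 0.00381). With the block by animal numbers the adjusted p of Tgfbr1 was 0.0672. Tgfb3, a ligand of this signal, was among the genes that fell (-0.39, adjusted p = 0.0214). Its call was lost without G34R replicate 1 or 3 (adjusted p up to 0.160), with the block (0.139) and with libraries of low mitochondrial share (0.0763). Il34, a neuronal ligand of the CSF1 receptor, had an adjusted p of 0.0499 and lost its call in each of the 9 fits without 1 animal (adjusted p up to 0.299), with the block (0.0845) and with libraries of low mitochondrial share (0.0678). Its log2 fold change was 0.22 at 10 weeks and 0.85 at day 7 (adjusted p at day 7 = 0.00365).

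Myelin genes lay low without passing the test for the most part. Of 28 genes of mature oligodendrocytes, 2 fell (Gal3st1 and Tspan2) and 0 rose, 4 had a positive log2 fold change, and the median was -0.21, against -0.0036 for all genes. The summed level was 5928 to 7737 CPM in WT and 4822 to 6166 CPM in G34R, so the groups overlapped. Gal3st1, which sulphates the myelin lipid galactosylceramide, had 6.65, 6.18 and 6.70 CPM against 8.38, 8.73 and 11.9 (-0.51 ± 0.12, adjusted p = 0.0204). The adjusted p of Gal3st1 was 0.0704, 0.0978 and 0.0743 without G34R replicates 1, 2 and 3. Tspan2, a tetraspanin of myelin, passed at 0.0348 and lost its call in 6 of the 9 fits without 1 animal (adjusted p up to 0.210), with the block (0.0742) and with libraries of low mitochondrial share (0.121). The count of the list was 0 without G34R replicate 1 or 3, 1 without WT replicates 1, 2, 4 or 5, with the block and with libraries of low mitochondrial share, and 4 by DESeq2. Of 19 precursor and premyelinating genes 1 fell, Susd5, with 7.07, 6.55 and 5.91 CPM against 7.72, 8.83 and 9.16 (-0.39 ± 0.10, adjusted p = 0.0199, and 0.0691 and 0.147 without G34R replicates 2 and 3).

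**Figure D2:**
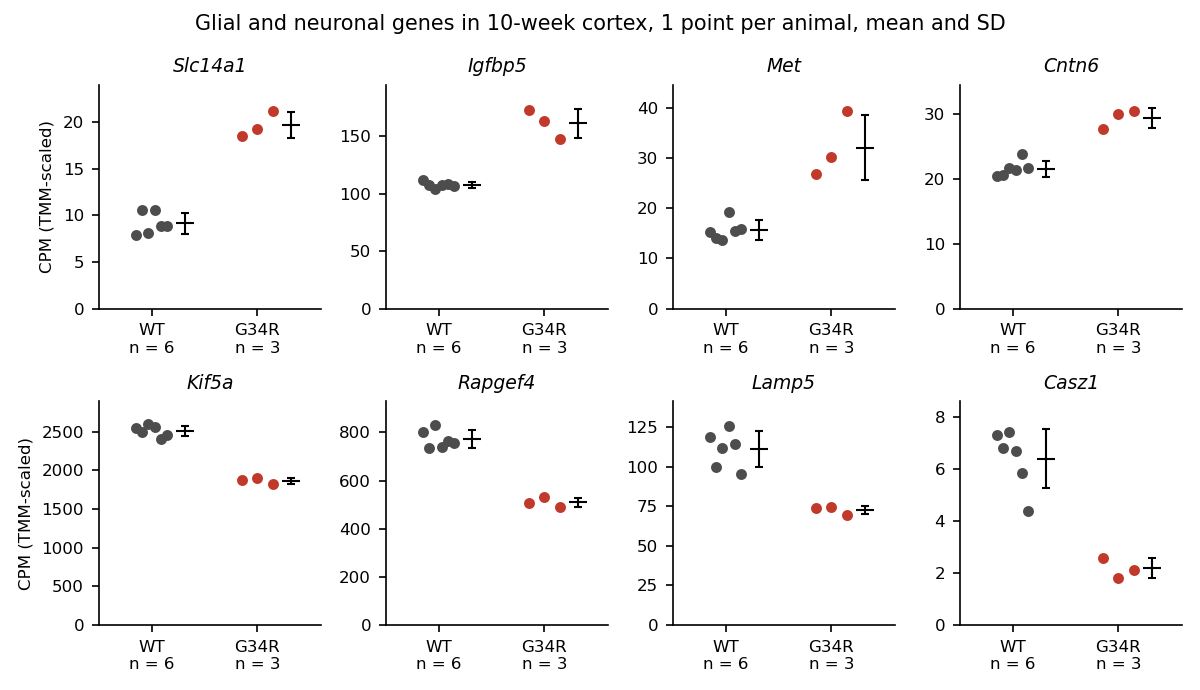
Level of 8 glial and neuronal genes in each animal at 10 weeks, in TMM-scaled CPM (y axis, from 0), for 6 WT and 3 G34R animals, with the mean and SD to the right of the points. In each panel all G34R animals lie outside the range of the WT animals, above it for Slc14a1, Igfbp5, Met and Cntn6 and below it for Kif5a, Rapgef4, Lamp5 and Casz1.

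Of 565 neuronal genes tested, 16 rose and 26 fell (7.43% called, against 5.61% of all genes), with a median of -0.05. Over the fits without 1 animal the counts were 9 to 16 higher and 9 to 28 lower, with the lowest counts without G34R replicate 1. With the block they were 8 and 24, and DESeq2 called 20 higher and 46 lower. Of 22 pan-neuronal and cytoskeletal genes 1 fell, 3 had a positive log2 fold change and the median was -0.09. Their summed level was 11820 to 11880 CPM in G34R and 12580 to 14020 in WT, with no overlap. Nefl, the light neurofilament chain, had 411, 450 and 439 CPM in G34R against 453, 507 and 570 in WT and an adjusted p of 0.0563. By edgeR none of 25 glutamate receptor subunits and none of 18 GABA and glycine receptor subunits passed. At an unadjusted p under 0.05 there were 4 and 2, and DESeq2 called 1 in each list.

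A further 3 genes that fell lay outside the neuronal lists and were picked after their values were seen. Kif5a (chromosome 10, 127225696 to 127263348), the neuronal kinesin heavy chain that carries cargo along axons, had 1881, 1896 and 1822 CPM in G34R against 2408, 2520 and 2595 in WT (-0.43 ± 0.05, adjusted p = 2.5e-05). Rapgef4, a cyclic AMP sensor of neurons, had 506, 530 and 492 CPM against 734, 762 and 829 (-0.60 ± 0.06, adjusted p = 6.28e-06). Stx16, a syntaxin of Golgi traffic, had 35, 34.8 and 37.4 CPM against 50.8, 58.1 and 60.1 (-0.66 ± 0.06, adjusted p = 4.09e-06). For these 3 genes no G34R animal reached the lowest WT animal. Met, the receptor of hepatocyte growth factor and a gene of some cortical projection neurons, moved the other way, with 26.8, 30.2 and 39.4 CPM in G34R against 13.7, 15.4 and 19.3 in WT (1.03 ± 0.12, adjusted p = 4.49e-05).

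The lists of layer genes held 6 calls. Of 20 upper-layer genes 2 rose and 1 fell, and of 22 deep-layer genes 1 rose and 2 fell, with medians of 0.06 and -0.22. Lamp5, a membrane protein of upper-layer cells and of a class of interneurons, had 73.7, 74.7 and 69.7 CPM in G34R against 95.6, 113 and 126 in WT (-0.61 ± 0.08, adjusted p = 6.01e-05). Its log2 fold change was -0.68 in G34V and -0.61 in G34W. Fezf2, the selector of corticospinal neurons, had 12, 11.1 and 12.4 CPM against 12.4, 18.4 and 20.9 (-0.58 ± 0.12, adjusted p = 0.00789, and 0.0555 without G34R replicate 2). The lowest WT animal lay within the G34R range of Fezf2. Of the other 4 calls, Pou3f2 (upper-layer) and Il1rapl2 (deep-layer), both higher, were each lost in 2 of the 9 fits without 1 animal and with the block (adjusted p = 0.189 and 0.267), and Il1rapl2 also with libraries of low mitochondrial share (0.14). Calb1 (upper-layer, higher) was lost in 7 fits and Crym (deep-layer, lower) in 6, and Crym also with the block (0.270) and with libraries of low mitochondrial share (0.197). No upper-layer gene was called higher without G34R replicate 1, and no deep-layer gene without G34R replicate 2 or 3. DESeq2 called 6 deep-layer genes lower and 1 higher.

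Among receptors and secreted peptides most calls by edgeR were lower. Of 50 receptors of modulatory transmitters and peptides 1 rose and 3 fell (8% called, against 5.61% of all genes). Of 27 neuropeptide and granule genes 0 rose and 3 fell (11.1%). DESeq2 called 3 of the receptors higher and 3 lower, and 0 and 4 of the peptide genes. Drd5, a dopamine receptor, had 2.03, 1.98 and 2.18 CPM in G34R against 3, 3.84 and 5.14 in WT (-0.93 ± 0.20, adjusted p = 0.00731). Npy5r, a receptor of neuropeptide Y, had 2.65, 2.21 and 2.87 CPM against 3.93, 4.83 and 5.73 (-0.89 ± 0.17, adjusted p = 0.00354). Crhbp, a secreted binder of corticotropin-releasing hormone made by somatostatin interneurons, had 13.1, 9.92 and 12.5 CPM against 15.6, 17.8 and 23.2 (-0.64 ± 0.13, adjusted p = 0.00481). The G34R animals lay below the WT range for all 3 genes. Of the other lower calls, Oprd1 and Grp were each lost in 7 of the 9 fits without 1 animal. Grp was also lost with the block (0.0718) and with libraries of low mitochondrial share (0.129). Vgf was lost without any 1 of the 3 G34R animals. Htr3a, the receptor that rose, was lost in 6 of the 9 fits and with the block (0.116).

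Of 41 cadherin and contactin genes 2 rose and 1 fell. Cntn6, a contactin that guides neurite growth, had 27.6, 29.9 and 30.5 CPM in G34R against 20.3, 21.4 and 23.8 in WT (0.44 ± 0.07, adjusted p = 0.000338). Pcdh11x, an X-linked protocadherin, had 50.2, 53.7 and 56.6 CPM against 38.8, 42.2 and 42.6 (0.36 ± 0.06, adjusted p = 0.000617). The log2 fold change of Pcdh11x was -0.01 in G34V and -0.02 in G34W.

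Of 45 neurogenic and forebrain transcription factors 6 rose and 3 fell, with a median of 0.07, and 2 rose and 1 fell without G34R replicate 2, 6 and 1 without G34R replicate 3, and 5 and 5 without WT replicate 4. Casz1 (chromosome 4, 148804429 to 148954889), a zinc finger factor of late-born neurons, had 2.58, 1.81 and 2.13 CPM in G34R against 4.37, 6.74 and 7.39 in WT (-1.55 ± 0.18, adjusted p = 2.23e-05). Dmrt3, a factor of the embryonic cortical progenitors, had 0.968, 0.737 and 1.04 CPM against 0.116, 0.169 and 0.344 (2.16 ± 0.33, adjusted p = 0.000426). Sox3, an X-linked factor of neural progenitors, had 1.29, 1.70 and 1.14 CPM against 0.482, 0.622 and 0.647 (1.21 ± 0.19, adjusted p = 0.000591). Both genes that rose stayed near 1 CPM, and the groups of all 3 genes were separate.

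The lists of injury and of survival signals held 2 calls each. Ddit3, the CHOP factor of endoplasmic reticulum stress, had 22.5, 21.5 and 21.1 CPM in G34R against 15.7, 17.1 and 17.6 in WT (0.35 ± 0.06, adjusted p = 0.00159), 1 of 2 calls among 22 axon injury and p53 target genes. The other was Ccng1, a cyclin that p53 induces, which was lower at an adjusted p of 0.0489 and lost its call in 7 of the 9 fits without 1 animal. Ret, the receptor tyrosine kinase for glial-derived neurotrophic factor, had 5.09, 5.04 and 5.49 CPM against 2.59, 3.24 and 3.65 (0.72 ± 0.13, adjusted p = 0.00228). Ret was 1 of 2 calls among 26 genes of neurotrophin and survival signalling. The other, Hmox1, a haem oxygenase, was higher at an adjusted p of 0.0241 and lost its call in 4 of those fits and with the block (0.147). Of 20 immediate early genes, which follow recent neuronal activity, 0 were called by edgeR, 5 had an unadjusted p under 0.05 and DESeq2 called 2, with a median of -0.51. The edgeR fit with the block called 3 of them lower. Their summed level ranged from 766 to 2061 CPM over WT animals and 588 to 1023 over G34R animals. Fos had 15.7, 20.4 and 51.5 CPM in G34R and 26.7 to 132 CPM in WT.

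Among lipid genes the edgeR calls of the cholesterol and fatty acid synthesis lists were all lower, and those of the efflux list all higher. Of 282 lipid genes tested, 21 rose and 25 fell, with a median of -0.01, and the counts were 11 to 22 higher and 16 to 26 lower over the fits without 1 animal. Of 20 cholesterol synthesis genes 8 fell and 0 rose, with a median of -0.23. The summed level was 1113 to 1254 CPM in WT and 896 to 998 in G34R. The count was 5 without G34R replicate 1, 6 to 8 without any other animal and 5 with libraries of low mitochondrial share. This list was already known to be low in these samples, so its count is no independent support.

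The promoters of the lowered cholesterol genes are printed because 1 factor, SREBP2, is known to drive the pathway in concert with the CCAAT-binding factor NF-Y. RefSeq promoter windows (build GRCm38.p6) were at hand for 4 of the 8 lowered genes. Each line gives the 180 bases before the annotated start, 5′ to 3′ on the gene's strand, with matches to TCACNCCAC (a core of the sterol regulatory element) and to CCAAT or its reverse complement ATTGG in capitals. Both strands were searched, and no match of one motif overlapped the other.
Hmgcs1, chr13:119690171-119690350, plus strand: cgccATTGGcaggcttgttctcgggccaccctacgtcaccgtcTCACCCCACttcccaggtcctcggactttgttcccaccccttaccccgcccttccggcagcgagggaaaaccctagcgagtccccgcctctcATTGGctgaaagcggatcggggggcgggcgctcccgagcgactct
Cyp51, chr5:4104698-4104877, minus strand: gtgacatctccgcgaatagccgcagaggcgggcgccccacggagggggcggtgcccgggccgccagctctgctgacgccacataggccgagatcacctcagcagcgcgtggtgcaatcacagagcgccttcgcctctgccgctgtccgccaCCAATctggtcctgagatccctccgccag
Msmo1, chr8:64733579-64733758, minus strand: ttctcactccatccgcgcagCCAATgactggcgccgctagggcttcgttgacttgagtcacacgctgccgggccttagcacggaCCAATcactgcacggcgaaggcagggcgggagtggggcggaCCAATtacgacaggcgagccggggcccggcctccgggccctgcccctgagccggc
Lss, chr10:76531425-76531604, plus strand: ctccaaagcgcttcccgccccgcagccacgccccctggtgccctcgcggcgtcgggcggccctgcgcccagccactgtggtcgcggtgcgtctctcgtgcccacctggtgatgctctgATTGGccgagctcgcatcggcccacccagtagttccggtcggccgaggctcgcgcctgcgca
CCAAT or ATTGG began 176 and 45 bases before the start of Hmgcs1, 29 before that of Cyp51, 160, 96 and 55 before that of Msmo1 and 62 before that of Lss. The sterol core occurred once, 137 bases before the start of Hmgcs1. In the same 180 bases the CCAAT box was found in 27.5% of all 32851 windows and the sterol core in 0.77%. Of 15 cholesterol synthesis genes with a window, 14 held a CCAAT box, against 33.5% of 13112 tested genes, whether or not they were lowered. A match is a description of the letters only.

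Hmgcs1, which makes hydroxymethylglutaryl-CoA at the head of the pathway, had 218, 259 and 263 CPM in G34R against 296, 326 and 370 in WT (-0.43 ± 0.08, adjusted p = 0.00202). Fdft1, which makes squalene, had 60.9, 62.3 and 61.8 CPM against 69.5, 73.6 and 82.5 (-0.28 ± 0.06, adjusted p = 0.00607). The order within each G34R group differed between genes, but no G34R animal reached the lowest WT animal.

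After squalene, Cyp51, the lanosterol demethylase, had 49.6, 54.4 and 53.5 CPM in G34R against 62.6, 68.8 and 76.6 in WT (-0.41 ± 0.07, adjusted p = 0.00117). Msmo1, a sterol methyl oxidase, had 57.2, 63.6 and 65.9 CPM against 69.5, 77.4 and 81.1 (-0.31 ± 0.06, adjusted p = 0.00257). Lss, the lanosterol synthase, had 28.7, 31.2 and 30.1 CPM against 34.3, 35.3 and 36.8 (-0.25 ± 0.06, adjusted p = 0.0119, and 0.0905 and 0.0617 without G34R replicates 1 and 3). For Lss it was 0.100 with libraries of low mitochondrial share and 0.0587 with the block. Sqle, the squalene epoxidase, passed at 0.0461 and, among the 9 fits that left out 1 animal, kept its call only without WT replicate 2 (adjusted p up to 0.246), and it was lost with libraries of low mitochondrial share (0.141).

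Of 23 genes of sterol sensing and uptake 2 rose and 4 fell, with a median of -0.06. Without G34R replicate 1 or 3 the counts were 1 higher and 2 lower, without G34R replicate 2 they were 0 and 4, and without WT replicate 3 they were 1 and 4. With the block 0 rose and 2 fell, and with libraries of low mitochondrial share 2 rose and 1 fell. Insig1, which holds the sterol sensor in the endoplasmic reticulum, had 62.5, 70.6 and 67.3 CPM in G34R against 78.2, 79.8 and 95.8 in WT (-0.33 ± 0.07, adjusted p = 0.00736, and 0.0657 without G34R replicate 1).

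Carriers of sterol outside the cell were among the higher genes. Of 26 efflux and lipoprotein genes 3 rose and 0 fell, with a median of 0.02, and DESeq2 called 5 higher and 1 lower. Of the 3, Ch25h passed at an adjusted p of 0.0499 and lost its call in 8 of the 9 fits without 1 animal. Its call was also lost with the block (0.302) and with libraries of low mitochondrial share (0.0804). Apoe, the main lipoprotein of brain, made by astrocytes and activated microglia, had 1338, 1210 and 1236 CPM in G34R against 951, 1020 and 1066 in WT (0.31 ± 0.05, adjusted p = 0.000843). Clu, the astrocyte lipoprotein clusterin, had 850, 830 and 820 CPM against 546, 605 and 624 (0.47 ± 0.06, adjusted p = 5.18e-05). The log2 fold changes in G34V and G34W were -0.00 and -0.13 for Apoe and 0.14 and -0.14 for Clu. Both genes are among those that astrocytes and microglia express. The summed levels of the filament genes (401 to 462 CPM in WT and 791 to 837 in G34R) and of the homeostatic microglia genes (425 to 465 and 664 to 734) were higher in the same animals, while that of the resting astrocyte genes overlapped (7722 to 8730 and 7593 to 8016). Of the filament sum, Gfap alone held 112 to 143 CPM in WT and 431 to 463 CPM in G34R. The part of these levels in the result was not tested.

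**Figure D3:**
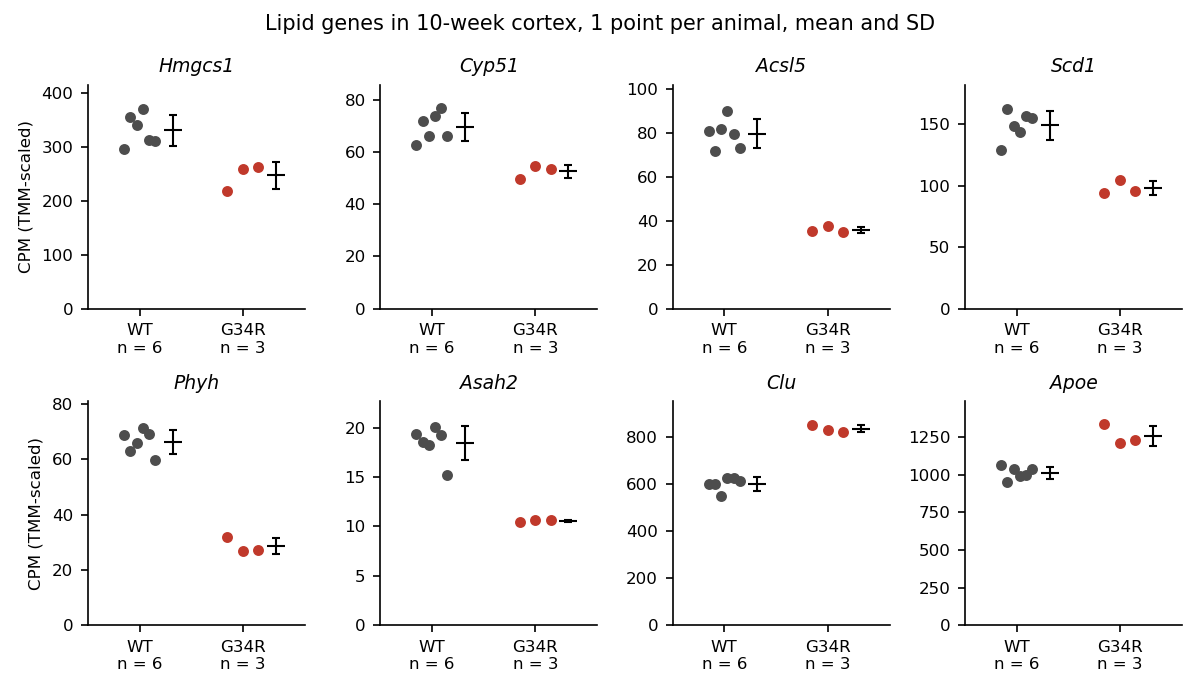
Level of 8 lipid genes in each animal at 10 weeks, in TMM-scaled CPM (y axis, from 0), for 6 WT and 3 G34R animals, with the mean and SD to the right of the points. The G34R animals lie below all WT animals for Hmgcs1, Cyp51, Acsl5, Scd1, Phyh and Asah2 and above them for Clu and Apoe.

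Fatty acid genes followed the sterol genes in direction. Of 31 genes of synthesis, elongation and desaturation 6 fell and 0 rose, with a median of -0.13, and the count was 3 without G34R replicate 3, 4 to 6 without any other animal and 3 with the block. Acsl5 (chromosome 19, 55251938 to 55297720), which activates long-chain fatty acids with coenzyme A, had 35.2, 37.5 and 34.7 CPM in G34R against 72.0, 80.3 and 90.1 in WT (-1.16 ± 0.08, adjusted p = 1.25e-07). Scd1, the stearoyl-CoA desaturase, had 94.2, 105 and 95.6 CPM against 129, 152 and 162 (-0.61 ± 0.10, adjusted p = 0.00156, and 0.0506 with the block by animal numbers). Its more abundant paralogue Scd2 had 981, 1022 and 1013 CPM against 1118, 1182 and 1296 (-0.25 ± 0.06, adjusted p = 0.0125, and 0.0822 and 0.0526 without G34R replicates 1 and 3, 0.119 with the block and 0.0537 with libraries of low mitochondrial share). Reads shared by the 2 paralogues could be split between them in the counting.

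Elovl2, which elongates polyunsaturated fatty acids, had 7.86, 8.56 and 7.96 CPM in G34R against 10.8, 11.8 and 12.5 in WT (-0.55 ± 0.11, adjusted p = 0.00569, and 0.0803 with the block). Acss2, which makes acetyl-CoA from acetate in the cytosol and nucleus, had 44.3, 44.8 and 40.7 CPM against 48.9, 52.2 and 54.8 (-0.27 ± 0.06, adjusted p = 0.00665, and 0.0726 without G34R replicate 3 and 0.0706 with the block). The G34R animals were below the WT range for both.

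Of 46 genes of fatty acid oxidation and peroxisomes 1 rose and 3 fell, with a median of 0.02, and 1 fell without G34R replicate 3 or with the block. Phyh (chromosome 2, 4919019 to 4938730), the peroxisomal hydroxylase that begins the breakdown of phytanic acid, had 32.1, 26.9 and 27.2 CPM in G34R against 59.9, 67.5 and 71.5 in WT (-1.21 ± 0.12, adjusted p = 2.3e-05). Ehhadh, the bifunctional enzyme of peroxisomal oxidation, had 2.04, 2.21 and 1.83 CPM against 3.18, 3.62 and 3.89 (-0.82 ± 0.18, adjusted p = 0.0106, and 0.0526 and 0.0724 without G34R replicates 1 and 3, and 0.0573 with the block).

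Of 47 sphingolipid and glycolipid genes 5 rose and 2 fell, with a median of 0.0036. The higher count was 3 without G34R replicates 2 or 3 or WT replicates 2, 5 or 6, 4 or 5 without any other animal and 3 with the block, and 3 rose and 3 fell with libraries of low mitochondrial share. Hexa, a subunit of lysosomal hexosaminidase, had 57.3, 53.7 and 55.4 CPM in G34R against 41.6, 43.4 and 44.8 in WT (0.35 ± 0.06, adjusted p = 0.00202). Sgpl1, the lyase that ends sphingosine-1-phosphate, had 37.8, 37.2 and 37.1 CPM in G34R against 28.1, 30.0 and 32 in WT (0.31 ± 0.05, adjusted p = 0.00114). Asah2, the neutral ceramidase of the cell surface, had 10.5, 10.6 and 10.6 CPM against 15.2, 18.9 and 20 (-0.81 ± 0.09, adjusted p = 8.69e-06).

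Of 63 phospholipid, eicosanoid and endocannabinoid genes 9 rose and 1 fell, with a median of 0.03, and the higher count was 5 without G34R replicate 1 or 2, 6 to 9 without any other animal and 4 with the block. The calls included 3 enzymes of prostaglandin and leukotriene synthesis. Ptgs1, cyclooxygenase 1, had 20.9, 19.4 and 20.2 CPM in G34R against 15.1, 15.8 and 16.4 in WT (0.36 ± 0.07, adjusted p = 0.00323). Hpgds, the haematopoietic prostaglandin D synthase, had 8.78, 7.96 and 9.15 CPM against 5.03, 5.23 and 5.67 (0.71 ± 0.09, adjusted p = 0.000101). Ltc4s, the leukotriene C4 synthase, had 3.95, 3.77 and 3.49 CPM against 1.16, 1.63 and 2.19 (1.18 ± 0.17, adjusted p = 0.000211). In brain these 3 enzymes are found mainly in microglia.

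Pld4, a lysosomal member of the phospholipase D family found in microglia, had 14.5, 11.9 and 12 CPM in G34R against 4.67, 5.76 and 6.55 in WT (1.18 ± 0.11, adjusted p = 4.12e-06). Hrasls, a phospholipid acyltransferase, fell, with 4.77, 2.86 and 5.71 CPM against 17.7, 18.6 and 21.8 (-2.09 ± 0.16, adjusted p = 6.42e-07). Plin3, a coat protein of lipid droplets, had 9.18, 9.47 and 8.51 CPM against 13.1, 16.2 and 20.2 (-0.84 ± 0.12, adjusted p = 0.000236), 1 of 2 calls among 27 droplet and carrier genes.

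A further 3 enzymes of lipid and aldehyde metabolism outside the lists fell, picked after their values were seen. Hsd17b11, a steroid and retinoid dehydrogenase of lipid droplets, had 8.11, 6.97 and 7.32 CPM in G34R against 13.3, 13.7 and 15.7 in WT (-0.92 ± 0.11, adjusted p = 3.52e-05). Zdhhc1, a palmitoyltransferase, had 8.15, 8.11 and 7.76 CPM against 16.2, 18.8 and 19.9 (-1.21 ± 0.09, adjusted p = 5.16e-07). Aldh2, the mitochondrial aldehyde dehydrogenase, had 48.8, 44.9 and 45.0 CPM against 59.1, 61.6 and 63.3 (-0.41 ± 0.05, adjusted p = 6.68e-05). None of the 3 overlapped with WT.

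Cholesterol synthesis genes had no call at day 7. At that age 63 of 20849 genes (0.302%) passed, and the difference between the G34R effects at the 2 ages passed for 261 of 22417 genes (1.16%). Of the 8 cholesterol synthesis genes lowered at 10 weeks, 5 had an effect that differed between the ages. These 8 were taken by their 10-week values, which also enter the difference. For Hmgcs1 the log2 fold change was 0.06 at day 7 and -0.43 at 10 weeks (adjusted p of the difference = 0.043). For Cyp51 it was -0.01 and -0.41 (0.031). Clu and Apoe gave -0.27 and -0.15 at day 7 (adjusted p = 0.633 and 0.775) and 0.47 and 0.31 at 10 weeks (adjusted p of the difference 0.00048 and 0.013).

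Other lipid genes had already changed at day 7. Phyh had a log2 fold change of -0.98 at day 7 (adjusted p = 4.57e-05) and -1.21 at 10 weeks, and the difference of 0.22 in size did not pass (adjusted p = 0.63). Hsd17b11 (-0.62, adjusted p = 0.036) and Zdhhc1 (-0.62, adjusted p = 0.0337) were lower and Ptgs1 (0.75, adjusted p = 0.046) higher at day 7 as well. In all, 32 genes passed at both ages, each in the same direction, 9 higher and 23 lower, which is 52.5% of the day 7 calls and 2.80% of the 10-week calls among genes tested at both. The count at day 7 was 6 without WT replicate 4, 7 without WT replicate 1 or G34R replicate 4, and 19 to 40 without any other of the 8 animals.

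**Figure D4:**
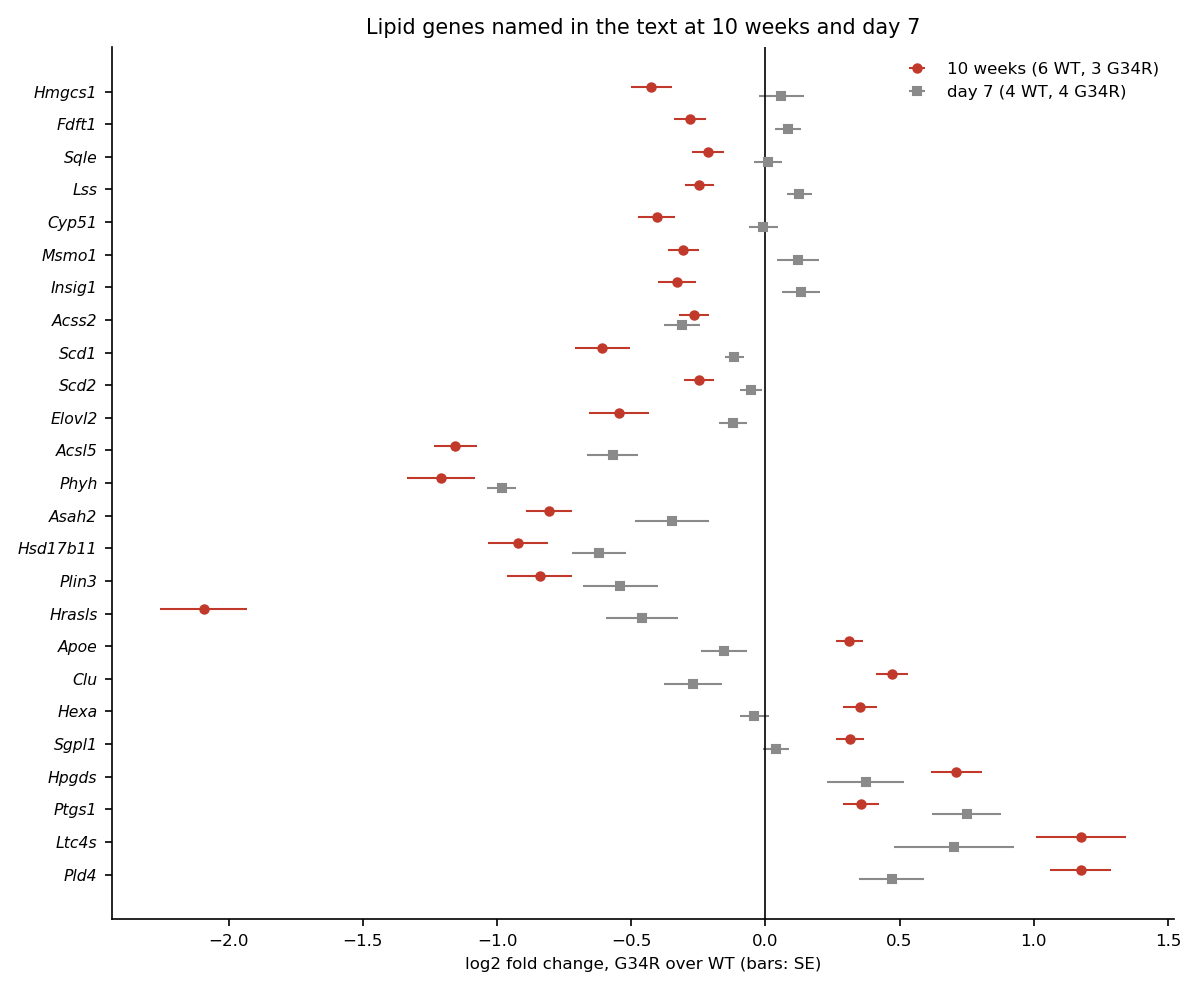
Log2 fold change of G34R over WT (x axis, bars are SE) for 25 lipid genes (y axis) at 10 weeks (circles, 6 WT and 3 G34R animals) and at day 7 (squares, 4 WT and 4 G34R animals). The cholesterol synthesis genes in the upper part lie near 0 at day 7 and below it at 10 weeks, while Phyh lies near -1 at both ages.

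The chromatin lists held few calls. Of 329 chromatin genes tested, 7 rose and 7 fell (4.26%, against 5.61% of all genes), with a median of -0.0064. Without 1 animal the counts were 1 to 9 higher and 2 to 7 lower. By edgeR 0 genes passed among 23 of H3K4 methylation, 27 of H3K9 methylation and heterochromatin, 40 of histone acetylation and 48 of chromatin remodelling complexes. At an unadjusted p under 0.05 these lists held 1, 5, 6 and 5 genes, and DESeq2 called 0, 2, 1 and 0.

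Dnmt3a, which the series names, and the lysine methyltransferases Setd2 and Nsd1 did not pass the test, and 2 of these 3 overlapped with WT. Dnmt3a, the methyltransferase itself, had 72.3, 75.9 and 76.5 CPM in G34R against 69.5, 74.2 and 82.3 in WT (-0.0025 ± 0.08, adjusted p = 0.993). Setd2 had 84.3, 89.0 and 90.7 CPM against 84.1, 92.9 and 98.4 (adjusted p = 0.746). Nsd1 had 204, 199 and 207 CPM against 216, 228 and 264, below the WT range, with an adjusted p of 0.206.

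Single calls near the threshold were Tet1 and Kdm2b. Tet1, which oxidises methylated cytosine, had 14.1, 15.5 and 16.1 CPM in G34R against 17.5, 18.1 and 20 in WT (-0.27 ± 0.07, adjusted p = 0.0379), and Kdm2b, a demethylase that recruits Polycomb to CpG islands, had 21, 21.1 and 20.6 CPM against 16.5, 17.7 and 18.9 (0.24 ± 0.07, adjusted p = 0.0400). Of the 9 fits without 1 animal Tet1 kept its call only in that without WT replicate 5, and Kdm2b only in those without WT replicates 2 and 4, at an adjusted p of up to 0.206 and 0.142. Both calls were lost with the block (0.174 and 0.282) and with libraries of low mitochondrial share (0.271 and 0.0668). Kdm2b was the call among 32 genes of H3K36 methylation.

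Histone variants and chaperones held 5 genes that rose and 2 that fell of 38, with a median of 0.09. The count of higher genes was 1 without G34R replicate 2, 3 without G34R replicate 1, 1 with libraries of low mitochondrial share and 0 with the block. H1f0 (chromosome 15, 79028450 to 79030504), the linker histone of cells that have stopped dividing, had 53, 51.1 and 51.8 CPM in G34R against 71.2, 74.0 and 79.8 in WT (-0.53 ± 0.05, adjusted p = 5.86e-06). H1f0 was lower in G34V and G34W too (-0.47 and -0.40, adjusted p = 3.6e-05 and 0.0043) and at day 7 (-0.35, adjusted p = 0.0272). Nap1l2, an X-linked nucleosome assembly protein of neurons, had 78.9, 78.8 and 82.4 CPM against 89.4, 96.8 and 111 (-0.30 ± 0.07, adjusted p = 0.00891, and 0.0517 and 0.0529 without G34R replicates 1 and 2). Hist3h2a, an H2A gene, had 42.0, 47.7 and 41.7 CPM against 27.6, 31.4 and 34.7 (0.47 ± 0.08, adjusted p = 0.000992, and 0.0624 with the block). Histone genes are near-identical copies, so reads may be shared among them.

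Of 43 imprinted genes 0 rose and 3 fell, with a median of -0.03. Ndn, the paternally expressed necdin of post-mitotic neurons, had 62.1, 51.4 and 62.3 CPM in G34R against 87.5, 114 and 121 in WT (-0.90 ± 0.11, adjusted p = 5.27e-05). The other 2, Rtl1 and Ppp1r9a, passed at 0.0323 and 0.0405 and lost their calls in 5 and 7 of the 9 fits without 1 animal and with the block (0.432 and 0.110), Rtl1 also with libraries of low mitochondrial share (0.334). The lower count was 1 without any 1 G34R animal or WT replicate 2 and 1 with the block. Of 17 germline-type genes that methylation keeps silent 1 fell, and the median was -0.18. This was Dazl, at an adjusted p of 0.044, which lost its call in each of the 9 fits without 1 animal (adjusted p up to 0.166), with the block (0.190) and with libraries of low mitochondrial share (0.143).

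**Figure D5:**
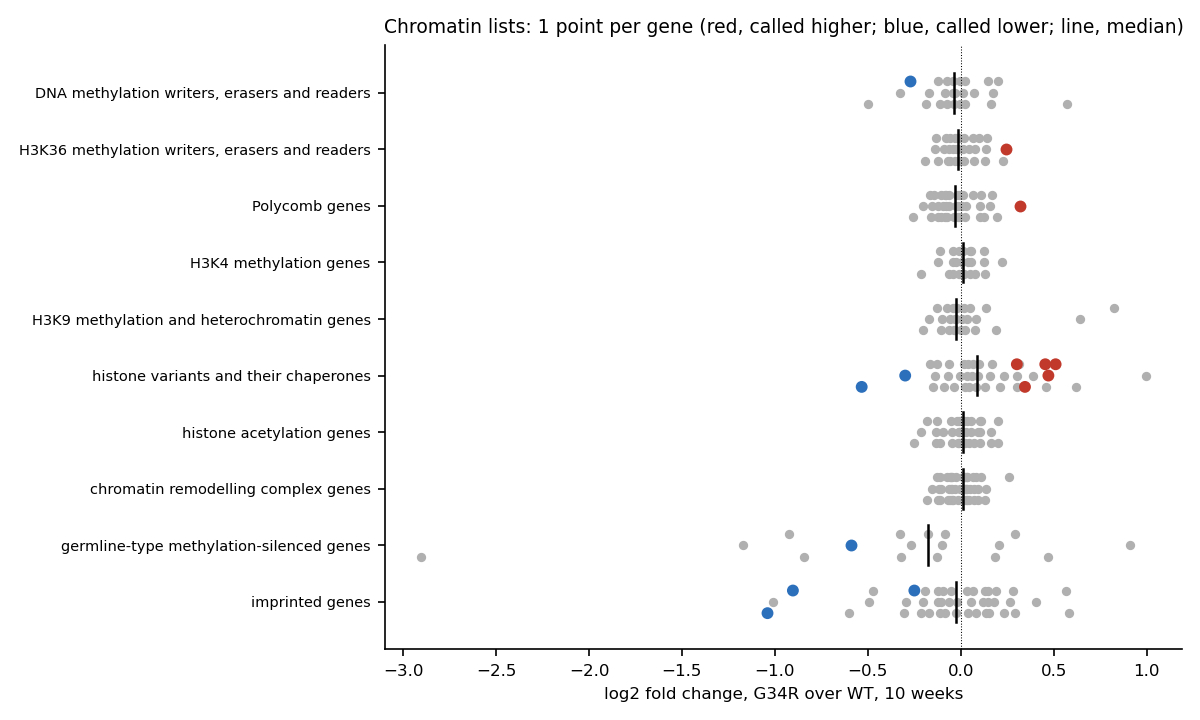
Log2 fold change of G34R over WT at 10 weeks (x axis) for each tested gene of 10 chromatin lists (1 row per list), with genes called higher in red, genes called lower in blue, other genes in grey and the median as a black line. The medians of the 8 lists of chromatin regulators and histones lie within 0.09 of 0, and 7 of the 14 called genes stand in the row of histone variants and their chaperones.

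The promoters of the called genes were less often CpG-rich than those of the tested genes. A promoter window was counted as CpG-rich at a CpG ratio of at least 0.6 and a GC share of at least 50%. Of 13112 tested genes with a window 64.3% had a CpG-rich promoter, against 54.8% of 409 lower genes and 30.9% of 457 higher genes. Of 346 higher genes outside the immune lists the share was 37.9%. These shares describe the called genes and were not tested.

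Outside every list the steepest falls included genes best known from other tissues. Ky, a muscle cytoskeletal protein, had 0.672, 0.538 and 0.594 CPM in G34R against 1.68, 2.26 and 3.72 in WT (-1.94 ± 0.27, adjusted p = 0.000193). Zfp811, a zinc finger gene, had 1.07, 0.879 and 0.742 CPM against 2.63, 3.86 and 4.32 (-1.99 ± 0.23, adjusted p = 2.5e-05). Rnf17, a Tudor-domain gene of male germ cells, and Efcab10, an EF-hand gene, had log2 fold changes of -2.25 and -2.11 (adjusted p = 0.00749 and 0.000312) and were at 1.58 CPM or less in each WT animal.

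Among the genes with the steepest rises outside every list were several known from immune cells. Ly9, a receptor of the SLAM family, had 2.3, 2.44 and 2.82 CPM in G34R against 0.138, 0.192 and 0.298 in WT (3.59 ± 0.41, adjusted p = 2.21e-05). St14, a membrane protease, had 1.21, 1.30 and 1.29 CPM against 0.0745, 0.313 and 0.405 (2.13 ± 0.33, adjusted p = 0.000528). Gpr84, a receptor of medium-chain fatty acids on myeloid cells, had 2.55, 1.93 and 1.63 CPM against 0.203, 0.396 and 0.782 (2.15 ± 0.35, adjusted p = 0.000793). Slc11a1, the metal transporter of phagosomes, had 5.79, 5.67 and 4.87 CPM against 1.18, 1.78 and 2.14 (1.67 ± 0.17, adjusted p = 5.47e-06). In each of the 4 genes all G34R animals lay above all WT animals, which was a condition for naming them.

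Values under the other substitutions are given side by side for 4 of these genes, against the same WT animals. For Acsl5 the log2 fold change was -1.16 in G34R, -0.96 in G34V and -0.71 in G34W (adjusted p = 1.39e-06 and 0.00141 for the latter 2). For Phyh it was -1.21, -1.33 and -0.55 (1.7e-05 and 0.069). For Asah2 it was -0.81, -0.88 and -0.66. For Kif5a it was -0.43, -0.16 and -0.03 (0.077 and 0.79). The differences between substitutions were not tested here.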

How the data were processed

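Total RNA of pulverised cortex from 22 mice was depleted of ribosomal RNA and sequenced. The authors deposited 1 table of raw read counts per gene for 23 libraries. The submitters' processing notes name Trimmomatic 0.32, STAR 2.3.0e, featureCounts 1.4.4, bedtools 2.27.1 and the build mm10. For the strand setting and the annotation release: not given in the sources used here. Libraries of WT and G34R animals at 10 weeks held 35.2 to 90.1 M counts and those at day 7 28.4 to 53.5 M.

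Both libraries of 1 WT animal were summed, and Xist, Tsix and Y-linked genes were removed. The deposited counts were tested with edgeR 4.0.16 in R 4.3.3 (TMM scaling, filterByExpr, robust quasi-likelihood F-test, Benjamini-Hochberg adjustment over all genes tested). Every adjusted p comes from this test unless DESeq2 1.42.0 is named, and a gene was called under 0.05. The 10-week fit held 14 animals of 4 genotypes, the day 7 fit 8 animals with sex as a covariate, and the fit for the difference between ages all 22. The SE is the log2 fold change divided by the square root of F. CPM values share 1 TMM scale over the 22 animals. The labels do not say that animals were separate litters, so p-values measure the spread between these samples. The test was checked on simulated counts.

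The members and lists were chosen with earlier results of these data known. The text names H3f3a, the up to 6 members of each glial, neuronal, lipid or chromatin list with the smallest adjusted p, and, outside every list, up to 12 genes per direction with the largest change, at least 1 CPM in 1 group and ranges that do not overlap. Genes named beyond this rule were chosen after their values were seen: besides those marked so in the text, these are members that were not called (among them Aqp4, P2ry12, Nefl, Fos, Dnmt3a, Setd2 and Nsd1), and Sqle, Tspan2, Rtl1 and Ppp1r9a where the rule did not reach them. Some list members are not reported here by name. Alternatives were another scaling, other filters, DESeq2, fewer animals in the fit, a block by adjoining animal numbers, libraries of low mitochondrial share and leaving out each animal. Promoter windows came from RefSeq (GRCm38.p6).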

Additional observations from a re-analysis of the deposited data

Results flagged for a closer look

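Animals set apart were looked for in WT at both ages and in G34R at day 7. The 3 G34R animals at 10 weeks were not examined. Of 267 groups of 4 or 6 animals examined for 89 genes of interest, 16 held 1 animal whose gap to its nearest neighbour was larger than Dixon's 95% critical value allows. Chance alone marks about 1 group in 20. At 10 weeks these were WT animals: Asah2 at 15.2 CPM in WT replicate 6, Clu at 546 CPM in WT replicate 3, Ddit3 at 15.7 CPM in WT replicate 6, Fos at 132 CPM in WT replicate 4, Gal3st1 at 11.9 CPM in WT replicate 1, Ky at 3.72 CPM in WT replicate 2, Neurod6 at 69.1 CPM in WT replicate 4, Nsd1 at 264 CPM in WT replicate 2 and Tet1 at 20.02 CPM in WT replicate 2. At day 7 they were Aldh2 at 31.1 CPM in G34R replicate 4, Efcab10 at 0.0664 CPM in WT replicate 1, Lamp5 at 8.2 CPM in G34R replicate 1, Ltc4s at 1.23 CPM in G34R replicate 1, Neurod6 at 88.3 CPM in G34R replicate 2, Sqle at 189 CPM in WT replicate 2 and Zfp811 at 3.32 CPM in WT replicate 1.

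For 43 of these 89 genes the G34R effect at 10 weeks differed from that at day 7 (all 22 animals, edgeR, adjusted p under 0.05). Over all genes it differed for 261 of 22417 (1.16%). Many of the 89 genes were named for their 10-week values, and the same animals enter this difference. A larger share is thus built in by the choice of genes. Each value below is the log2 fold change at 10 weeks minus that at day 7. The effect was more positive at 10 weeks for the first set. The difference was Apoe 0.48, Clu 0.75, Ddit3 0.48, Ftl1 0.39, Gfap 1.99, Hexa 0.41 and Hist3h2a 0.57. It was Igfbp5 0.55, Kdm2b 0.35, Ly9 3.05, Met 1.09, Osmr 1.04, Pcdh11x 0.35 and Pld4 0.71. It was Ret 0.78, Sgpl1 0.29 and Slc14a1 1.05. The effect was more negative at 10 weeks for the second set. For Il34 this is a smaller rise, 0.22 at 10 weeks against 0.85 at day 7. Here the difference was Acsl5 -0.58, Bcat1 -0.43, Casz1 -1.13, Crhbp -0.83, Cyp51 -0.39, Drd5 -1.37, Fdft1 -0.35 and Hmgcs1 -0.47. It was Hrasls -1.62, Il34 -0.62, Insig1 -0.45, Kif5a -0.32, Ky -1.68, Lamp5 -0.96 and Lss -0.36. It was Msmo1 -0.41, Nap1l2 -0.43, Ndn -0.80, Rapgef4 -0.56, Rnf17 -3.21, Scd1 -0.48 and Stx16 -0.50. It was Tfr2 -1.07, Tfrc -0.70, Zdhhc1 -0.58 and Zfp811 -1.90.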

How the results depend on the processing

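At 10 weeks the count of 1193 called genes was 753 with runs of animal numbers as a block (44.9% of them higher, against 52.6%) and 693 to 1093 when 1 animal was left out. It was 966 with libraries of low mitochondrial share and 1101 to 1661 under the other alternatives, with 1192 of the 1193 genes also called by DESeq2. At day 7 the count of 63 was 158 without a filter on low counts, 209 by DESeq2 and 6 to 40 without 1 animal. The count of 261 genes that differed between ages was 461 by DESeq2 and 133 to 281 without 1 animal. The cause of these shifts was not tested. Uncalled genes near 0 changed sign. The log2 fold change of Setd2 was 0.0261 with the block and 0.0451 with libraries of low mitochondrial share. Dnmt3a gave 0.0005 with RLE scaling, 0.0014 with a CPM filter, 0.0006 by DESeq2, 0.013 with the libraries of 1 WT animal apart, 0.006 with WT and G34R animals alone, 0.0241 with the block and 0.1017 with libraries of low mitochondrial share. Leaving out 1 animal gave Dnmt3a values from -0.0147 to 0.0278. No paired analysis was possible because the labels give the animals no replicate numbers that are shared across genotypes, and the block above groups animals by adjoining numbers without pairing them 1 to 1.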

Other observations

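Some gene groups outside the lists were described after their values were seen, so their counts are descriptions. Iron handling genes split into 3 higher and 3 lower of 35 (17.1% called, against 5.61% of all genes). Tfrc, the transferrin receptor, had 83.7, 80.6 and 86.7 CPM in G34R against 128, 146 and 176 (lowest, median and highest) in WT (log2 fold change -0.83 ± 0.11, edgeR adjusted p = 0.000275). Ftl1, the light ferritin chain that stores iron, had 141, 126 and 130 CPM against 95.5, 98.7 and 107 (0.41 ± 0.06, edgeR adjusted p = 0.00034). Tfr2, a second transferrin receptor, had 1.73, 1.56 and 1.39 CPM against 2.90, 3.21 and 3.44 (-1.03 ± 0.15, edgeR adjusted p = 0.000338). The groups did not overlap for any of these 3 genes. Bcat1, the cytosolic transaminase of branched-chain amino acids, had 44.4, 50.2 and 47.5 CPM against 67.6, 78.8 and 84.7 (-0.72 ± 0.07, edgeR adjusted p = 6.28e-06).

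Of 387 tested zinc finger genes with symbols in Zfp, 1 rose and 24 fell (6.46% called, against 5.61% of all genes), with a median of -0.05, and 10 to 22 fell when 1 animal was left out, 14 with libraries of low mitochondrial share and 13 with the block. Of 66 genes of the histone clusters 14 rose and 0 fell (21.2%), with a median of 0.30. The number that rose was 4 to 15 without 1 animal, 1 with libraries of low mitochondrial share and 0 with the block. Their near-identical copies may share reads. Of 967 genes of the X chromosome 19 rose and 46 fell (6.72%), and 28, 30 and 35 fell without G34R replicates 1, 2 and 3. Of 538 long intergenic RNA genes 1 rose and 17 fell (3.35%), and 11, 11 and 9 fell without those animals. Counted in either direction, both shares lie near or below that of all genes. By direction, 2.95% of all genes were higher and 2.66% lower, whereas the calls of the X chromosome, long intergenic RNA and Zfp groups were mostly lower. This lean was not tested. Of 48 kinesin and dynein motor genes 1 rose and 3 fell (8.33%), and 1 fell with the block or with libraries of low mitochondrial share.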
